A study of Homo sapiens with 2 samples.

Results

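The 150 high named antisense RNAs of LAD2 extracellular vesicles are described here beside the genes they are named after. Extracellular vesicles are membrane-bound particles that cells release, and LAD2 is an established human mast cell line. RNA sequencing covered 2 libraries, replicates 1 and 2, of 1 group: vesicles collected from LAD2 cultures after 4 days in SP34 medium with stem cell factor, at 37 °C and 5% CO2. There was no cell RNA, no other treatment and no control group in the data analysed here, and the labels do not state that the replicates were grown separately. Differences between them may therefore be technical. The deposited values are normalised and on a log2 scale, and a value of each gene in each library is given below as a log2 level.

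The RNAs were chosen by name and by level: a gene symbol ending in -AS1, -AS2 or -AS3 and a mean log2 level of at least 8 over the 2 libraries. Of 14467 genes with a value, 841 had such a symbol, 156 of these reached the level, and 6 of them were left out by name under the rule, which left 150 (144 ending in -AS1). The rule used the levels, so that these RNAs are high, and in large part that they lie above other genes, is a description of the choice and is not tested. Just inside the limit were DEPTOR-AS1 at a mean of 8.03, RUFY1-AS1 at 8.03 and PTOV1-AS1 at 8.01. Just outside were RNF185-AS1 at 7.99, HMMR-AS1 at 7.98 and TTC7B-AS1 at 7.97.

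An antisense RNA is transcribed from the strand opposite to another gene, here called the sense gene, and is named after it. Such RNAs can start close to the promoter of the sense gene and run away from it, start inside the sense gene, or run into its far end. Where exons of both genes cover the same bases the RNAs are complementary, and some antisense RNAs are known to change the stability, splicing or transcription of the sense RNA, while many have no known function.

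Whether reads were counted by strand is not stated in the labels or notes. Without that, reads from an antisense gene and from the opposite-strand exons it overlaps cannot be told apart, and this holds for every value below. The shared exonic bases are therefore shown first. Each line gives 30 bases of the spliced antisense RNA, 5′ to 3′, from GENCODE 29 transcripts on GRCh38 (hg38), with DNA letters. Capitals mark bases that also lie in an exon of the sense gene on the other strand, and lower case marks bases outside its exons. The first 5 are among the highest antisense RNAs (leaving out RPL30-AS1) with at least 100 shared exonic bases and a value for both genes, and the last 2 were chosen after their values were seen, because SLC18A2 belongs to mast cell biology and IRF1 has nearly the level of its antisense RNA.
RUSC1-AS1: agccctcctcacCAGGGTCCTCCTGGAACC
TTN-AS1: CTGGTTGGCTTGGTTTATctgaaatatttt
LIMD1-AS1: AAGCCCATGGAAACAAGGCGATGACGGCGC
TMPO-AS1: ccgcgtccttacCCTGCCGACGGCTGCTCG
PRC1-AS1: AAGATTCCAAGTGAATTCcttcagaggaag
SLC18A2-AS1: CATGGCTCCGGGGCTCCGctgcgggcgcgg
IRF1-AS1: CCCCTGCTTTGTATCGGCctagagggcagg

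The RUSC1-AS1 stretch lies at chr1:155320974-155321003 on the minus strand, opposite an untranslated part of a RUSC1 exon. The TTN-AS1 stretch at chr2:178538822-178538851 on the plus strand leaves a coding exon of TTN after its first 18 bases. All 30 bases of the LIMD1-AS1 stretch, at chr3:45680042-45680071 on the minus strand, face an untranslated part of LIMD1. The TMPO-AS1 stretch at chr12:98516129-98516158 on the minus strand and the PRC1-AS1 stretch at chr15:90982009-90982038 on the plus strand face coding exons. The SLC18A2-AS1 stretch at chr10:117241667-117241696 on the minus strand begins with CAT, the reverse complement of a start codon, and covers coding and untranslated bases of SLC18A2. The IRF1-AS1 stretch at chr5:132487113-132487142 on the plus strand faces a coding exon of IRF1. For all 7, the reverse complement of the capitals was found in annotated transcripts of the sense gene.

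The high antisense RNAs had mean levels from 8.01 to 13.47 with a median of 9.17, beside a median of 4.09 over the other 691 named antisense genes and 3.06 over all genes. They made up 1.04% of the genes and held 7.19% of the summed linear value in replicate 1 and 7.24% in replicate 2. Their sense genes together held 0.324% and 0.280%. A sense gene could be named for 149 of them, HOXB-AS1 being named after a cluster. Both values were present for 116 pairs, and in the remaining 33 (22.1%) the sense gene had no value, compared with 238 of 683 (34.8%) among the other named antisense genes. The 113 distinct sense genes with a value had a median log2 level of 3.77 and ranged from -0.24 to 9.60, beside a median of 3.48 over 428 sense genes of the other named antisense genes and 2.99 over 8431 protein-coding genes. Only TTN, PTOV1, LGALS8 and IRF1 among these 113 reached a level of 8 themselves. For 47 of the 113 the linear value was below 10 in both libraries. Low values are shrunken towards each other, so the replicate SD understates the error. That range has no sharp upper end. The replicate spread was 0.03 over all genes with a mean level up to 4, beside 0.22 over other genes at 8 or above. Some sense genes higher up had very small SDs too, such as GEMIN7 with 0.001 at a mean level of 5.34.

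The antisense RNA lay above its sense gene in 114 of 116 pairs as deposited, and in both libraries in 112 of them. The median difference, antisense minus sense, was 5.74 log2 units, with quartiles of 3.92 and 7.35 and a range from -0.77 to 9.92. The difference was larger than the summed replicate SDs of its genes in 114 pairs, the exceptions being PTOV1-AS2 and IRF1-AS1. Since the SDs of low sense genes understate the error, that count does not measure how certain the differences are. Since genes differ in length, levels were also set side by side per kilobase of exon. The antisense genes had a median exonic length of 2293 bases and the sense genes 5952. Per kilobase, the antisense RNA was above in 113 of 115 pairs, with a median difference of 6.88 log2 units. At least 2-fold above in both libraries were 109 of 116 high antisense RNAs (94.0%) as deposited, where the share over all 561 named antisense pairs was 56.1%. Per kilobase, 112 of 115 (97.4%) passed 2-fold, where the share over all pairs was 76.9%. None was 2-fold below on either scale, beside 21.9% of all pairs as deposited and 10.4% per kilobase. The rule fixed the antisense side of these differences, so nothing is read from the excess over all pairs. In the other 445 pairs, the antisense RNA was above in 260, with a median difference of 0.67 log2 units as deposited and 3.20 per kilobase.

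**Figure D1:**
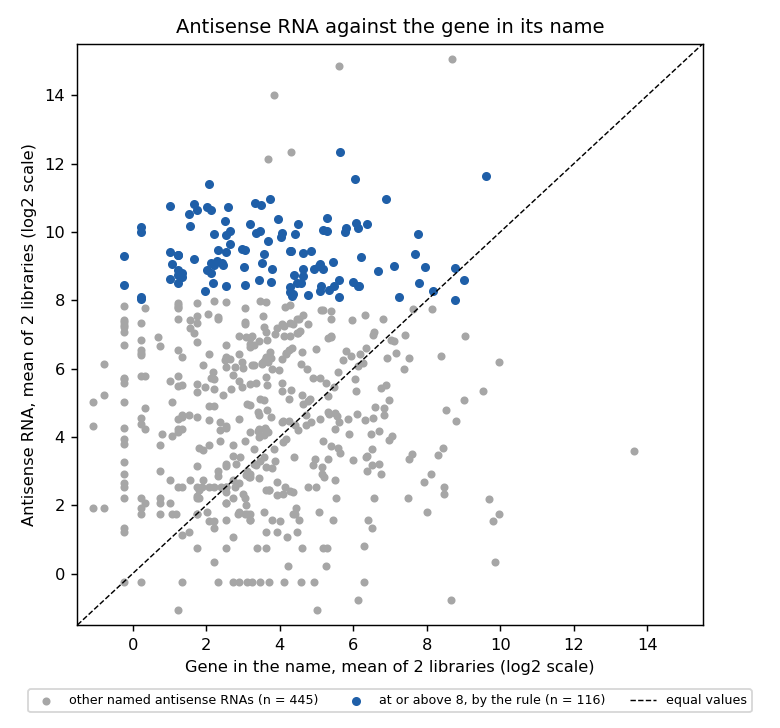
Mean log2 level over 2 libraries of the antisense RNA (vertical axis) against the gene in its name (horizontal axis), 1 point per pair. Blue points are the 116 high antisense RNAs with both values, grey points the other 445 pairs, including those left out of the rule by name; the blue points lie above the dashed line of equal values in 114 pairs and spread over sense levels from -0.24 to 9.60.

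The level of the antisense RNA was almost unrelated to that of its sense gene. Over the 116 pairs, Spearman's rho was -0.10 and Pearson's r was -0.04, and over all 561 named antisense pairs rho was 0.06 and r was 0.05. These are across genes, which share libraries and are no replicates, and the range of the antisense levels was cut by the rule.

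RPL30-AS1 was the highest, at 13.23 in replicate 1 and 13.71 in replicate 2. RPL30, a protein of the large ribosomal subunit, had no value, and its gene shares 871 exonic bases with RPL30-AS1. RUSC1-AS1 stood at 12.28 and 12.42, while RUSC1, which encodes an adaptor protein with RUN and SH3 domains, stood at 5.58 and 5.73, a difference of 6.70 ± 0.01 log2 units (SD, n = 2) and of 7.32 per kilobase. The 2 genes were far apart in both libraries. Among the sense genes of the 15 highest, only RPL30 and ZNF561 lacked a value.

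TTN-AS1 read 11.86 and 11.42, and TTN, the giant spring protein of muscle, read 9.76 and 9.44. TTN was the highest of all the sense genes and its exons share 11381 bases with TTN-AS1, the longest overlap of all the high antisense RNAs. The difference was 2.04 ± 0.08 log2 units (SD, n = 2) as deposited and 4.57 per kilobase, because the annotated exons of TTN span 118976 bases and those of TTN-AS1 20654. ZNF561-AS1 stood at 11.53 and 11.59 with no value for ZNF561, a zinc finger gene. LIMD1-AS1 read 11.53 and 11.58 against 5.98 and 6.11 for LIMD1, a LIM-domain scaffold protein of cell adhesions and RNA bodies. In CPB2-AS1, at 11.44 and 11.37, no exonic base is shared with CPB2, which encodes a plasma carboxypeptidase that slows clot lysis and read 2.09 and 2.05.

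TMPO-AS1 stood at 10.88 and 11.02, and TMPO, a lamina-associated protein of the inner nuclear membrane, at 6.76 and 7.05. PRC1-AS1 stood at 10.88 and 10.82 and PRC1, which bundles microtubules in the dividing cell's midzone, at 3.30 and 3.37. The 5′ ends of TMPO-AS1 and TMPO are 910 bases apart, whereas PRC1-AS1 lies within PRC1.

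GTF2I-AS1 read 10.70 and 10.96 against 1.67 and 1.68 for GTF2I, a general transcription factor. SLC9A3R1-AS1 read 10.50 and 11.06 against 3.49 and 3.51 for its sense gene, now named NHERF1, a scaffold for membrane transporters. VAC14-AS1 read 10.76 and 10.75 against 1.02 and 1.02 for VAC14, the scaffold of the lipid kinase complex that makes PI(3,5)P2 on endosomes. The values of GTF2I and VAC14 lie in the shrunken range, so their differences of 9.15 and 9.73 log2 units are uncertain by more than the replicate SD shows. The same holds for CPB2, PRC1 and NHERF1, given above, and for MAP4K1, SLC25A5 and IPO9, given next.

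MAP4K1-AS1 stood at 10.59 and 10.89, with MAP4K1, a kinase of blood cells that restrains antigen receptor signalling, at 2.6 and 2.61. SLC25A5-AS1 stood at 10.51 and 10.94, with SLC25A5, a mitochondrial ADP/ATP carrier, at 2.01 and 2.04. IPO9-AS1 stood at 10.59 and 10.71, with IPO9, a nuclear import receptor, at 1.77 and 1.74. In all 12 of the pairs given here with both values the antisense RNA was above its sense gene in both libraries. GTF2I, RPL30 and SLC25A5 have near-identical copies elsewhere in the genome, so reads could have been split or dropped there, and how such reads were treated is not stated.

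**Figure D2:**
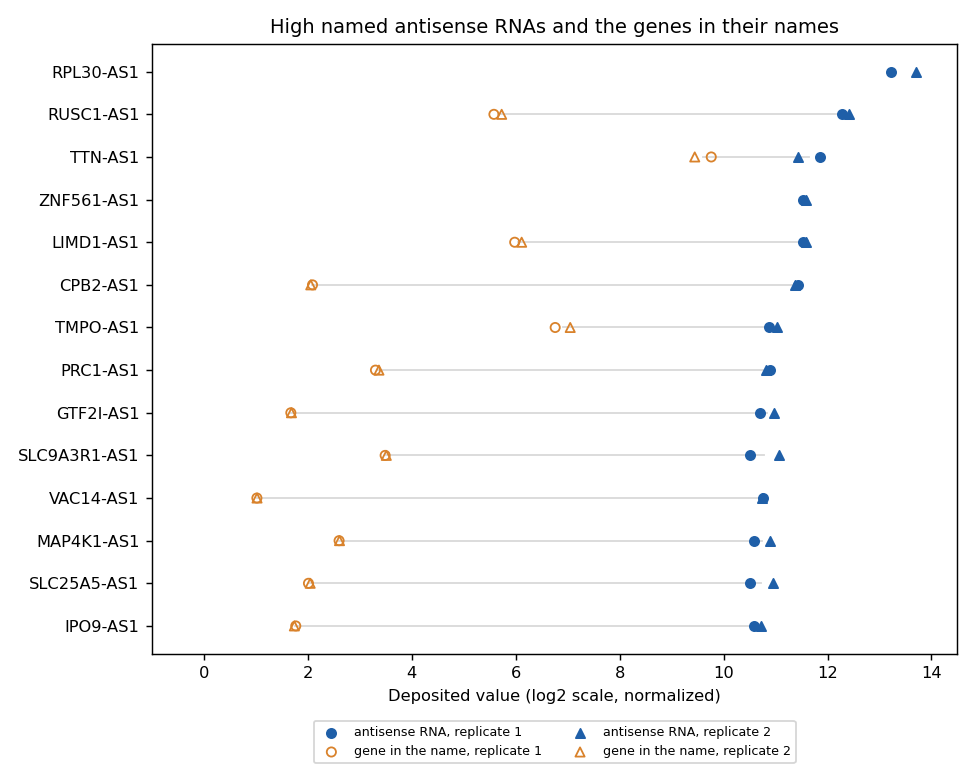
Log2 level in each library of 14 of the 15 highest named antisense RNAs and of the genes in their names, 1 row per pair and 1 point per library. The antisense points lie between 10.50 and 13.71 and the sense points, where there is a value, between 1.02 and 9.76, with TTN the nearest to its antisense RNA.

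As deposited, the widest differences were those of RNF157-AS1, SPAG5-AS1 and VAC14-AS1. RNF157-AS1 read 9.91 and 10.38 and RNF157, a ubiquitin ligase, 0.23 and 0.23. SPAG5-AS1 read 9.85 and 10.15 and SPAG5, a mitotic spindle protein, 0.23 and 0.23. Per kilobase the widest was UQCRB-AS1, at 8.44 and 8.48, where UQCRB, a subunit of respiratory complex III, read -0.23 and -0.24 and the difference was 13.37 log2 units. RCC2-AS1 at 10.11 and 10.24 followed, with RCC2, a regulator of chromosome condensation, at 1.57 and 1.55 and a difference of 12.34 per kilobase. Values this low stand for very few reads.

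At the other end, PTOV1-AS1 and LGALS8-AS1 were the 2 pairs in which the sense gene was higher as deposited. PTOV1-AS1 read 7.93 and 8.09 against 9.02 and 8.54 for PTOV1, so the difference was -0.77 ± 0.46 log2 units (SD, n = 2). PTOV1-AS2, the other antisense RNA named after the same gene, read 8.79 and 9.08 and overlapped PTOV1's range, with a difference of 0.16 ± 0.54. LGALS8-AS1 read 8.53 and 8.63 against 9.21 and 8.82 for LGALS8, a galectin that binds sugars on damaged vesicles. Per kilobase LGALS8-AS1 was 2.30 log2 units above LGALS8, since its exons measure 1457 bases against 9710. IRF1-AS1 at 8.30 and 8.26 and IRF1, an interferon-induced transcription factor, at 8.35 and 7.997 were not distinguishable within their spread on either scale, with a difference of 0.11 ± 0.22 as deposited and -0.21 per kilobase. PTOV1-AS1 stood at -0.27 per kilobase from PTOV1, also within the summed SDs.

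The high antisense RNAs are given next by the role of the sense gene. Counts of pairs with the antisense RNA above are to be read beside 114 of 116 over all high ones. Over all named antisense pairs the count was 374 of 561. The rule largely fixed these counts, so nothing is read from them about a role. Among 18 high antisense RNAs whose sense genes were placed by hand in the immune and mast cell group, the antisense RNA was above in 13 of 14 pairs with both values. Not all genes of this group are signalling genes. The exception was LGALS8 as deposited and IRF1 per kilobase. The median level of the sense genes was 4.21 and the median difference per kilobase 6.28 log2 units. SLC18A2 encodes the vesicular monoamine transporter that loads histamine and serotonin into secretory granules, and at 7.78 and 7.76 it was among the higher sense genes. SLC18A2-AS1 read 10.09 and 9.79, which was 2.18 ± 0.20 log2 units (SD, n = 2) above SLC18A2 as deposited and 4.65 per kilobase. The genes share 105 exonic bases at their 5′ ends.

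PLCG1, a phospholipase activated downstream of antigen receptors, read 6.84 and 6.53, and PLCG1-AS1 8.75 and 8.99. TNFRSF14, a receptor of the TNF receptor family, read 6.05 and 6.22, below TNFRSF14-AS1 at 10.20 and 10.05. PYCARD, the inflammasome adaptor ASC, read 4.68 and 4.61, and PYCARD-AS1 9.14 and 9.62. The cytokine gene LIF, at 1.22 and 1.24, and the tetraspanin gene CD82, at 3.06 and 3.03, were low beside LIF-AS2 at 8.71 and 8.32 and CD82-AS1 at 9.58 and 9.35. CD44, the hyaluronan receptor, had no value, and CD44-AS1 stood at 10.01 and 9.50.

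Sense genes of membrane traffic and the lysosome, 12 in number, are the group closest to the making of vesicles. In 9 of 9 pairs with both values the antisense RNA was above, with a median sense level of 3.19 and a median difference per kilobase of 5.19 log2 units. STXBP5-AS1 stood at 10.38 and 10.68 and STXBP5, tomosyn, which holds back SNARE assembly, at 1.53 and 1.52. AP1G2-AS1 stood at 10.22 and 10.24 and AP1G2, an adaptor subunit for clathrin coats, at 6.25 and 6.50, the highest sense level of the group. RAB11B, a GTPase of recycling endosomes, read 5.10 and 5.11 below RAB11B-AS1 at 8.35 and 8.17. CHMP1B, a part of the ESCRT-III machinery that cuts membrane necks, had no value, while CHMP1B-AS1, whose exonic bases all lie opposite CHMP1B exons, read 8.61 and 8.76.

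For chromatin and transcription, the largest named group with 27 antisense RNAs, the antisense RNA was above in 20 of 20 pairs, with a median sense level of 4.13 and a median difference per kilobase of 6.90 log2 units. EHMT2-AS1 read 10.19 and 10.59 and EHMT2, a histone H3 lysine methyltransferase, 4.01 and 3.92. HIF1A-AS3 read 10.03 and 10.01 and HIF1A, the oxygen-regulated transcription factor, 3.52 and 3.43, with no exonic base shared. MYB-AS1 read 8.87 and 8.75 against 1.35 and 1.33 for MYB, a transcription factor of blood progenitors. ZNF710 at 7.59 and 7.75 was the highest sense gene here, and ZNF710-AS1 at 9.48 and 9.23 the nearest to it. ZEB2-AS1 stood at 8.68 and 8.33 and ZEB2, a repressor of epithelial genes, at 4.50 and 4.68.

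Cell division and genome maintenance gave 12 antisense RNAs with a median level of 9.97, and 10 of 10 pairs had the antisense RNA above. NUP153, a nuclear pore protein, was its highest sense gene at 7.84 and 8.08, and NUP153-AS1 read 8.92 and 9.05. XPC-AS1 stood at 9.83 and 10.05 and XPC, which detects DNA damage for excision repair, at 2.20 and 2.24. MCM3AP-AS1 read 9.99 and 10.09 and MCM3AP, a factor of messenger RNA export placed in this group by hand, 5.35 and 5.20.

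RNA processing and translation held 16, with 10 of 10 pairs above and a low median sense level of 2.29. HNRNPK-AS1 read 10.58 and 10.69 and HNRNPK, an RNA-binding protein, 2.11 and 2.14. Sense levels in this group were not uniformly low, and 4 of the 10 were above 5. THUMPD3, a tRNA methyltransferase, was the highest at 7.50 and 6.99, close below THUMPD3-AS1 at 8.08 and 8.11, and the pair differed by 0.62 log2 units per kilobase. NOP14, a factor of small ribosomal subunit assembly, read 6.26 and 6.18, the splicing factor gene PRPF31 5.79 and 5.81, and GEMIN7 5.34 and 5.34. PABPC4, a poly(A)-binding protein, had no value beside PABPC4-AS1 at 9.18 and 9.57.

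Metabolism and mitochondria gave 12 antisense RNAs, with 9 of 9 pairs above, the highest median sense level of the named groups at 5.12 and a median difference per kilobase of 4.54 log2 units. NDUFB2, a subunit of respiratory complex I, read 7.82 and 7.74 and NDUFB2-AS1 8.35 and 8.68. LIPE-AS1 read 10.29 and 9.73 and LIPE, hormone-sensitive lipase, 5.88 and 5.67. DHRS4-AS1, at 8.25 and 8.57, was 1.63 log2 units per kilobase above DHRS4, a carbonyl reductase with near-identical neighbouring copies, at 6.04 and 6.24.

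In the cytoskeleton and adhesion group the antisense RNA was above in 11 of 11 pairs, with a median difference per kilobase of 8.20 log2 units. PXN-AS1 read 9.90 and 9.999 and PXN, the focal adhesion protein paxillin, 4.40 and 4.44. GSN-AS1 read 8.98 and 9.22 and GSN, the actin-severing protein gelsolin, 2.45 and 2.42. ARAP1 and NAV2 each gave their names to 2 of the high antisense RNAs, so those pairs share a sense value. Ion transport gave 4 pairs of 4 above, among them KCNMA1-AS1 at 9.81 and 10.14 and KCNMA1, a calcium-activated potassium channel, at 3.41 and 3.33. Of the 36 with other or mixed roles, 28 of 29 pairs had the antisense RNA above. The roles were assigned by hand after the values were seen, and the differences between role groups were not tested.

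The 150 high antisense RNAs were 17.8% of the 841 named antisense genes, and the counts by symbol that follow are to be read beside that share. The high ones included the 1 of 1 named antisense gene of a cytosolic ribosomal protein, 2 of 5 of mitochondrial proteins, 5 of 37 of zinc finger genes, 1 of 6 of HOX genes, 1 of 5 of small GTPases, 5 of 20 with symbols of solute carriers and ATPases, and 0 of 2 of translation factors. SLC9A3R1-AS1 is counted by its symbol, though its sense gene NHERF1 is a scaffold and no transporter itself. A list of 53 widely studied noncoding RNAs, most of them named antisense RNAs, was also looked up, and 33 had a value, with a median level of 5.26. These include MIR4435-2HG, TP53TG1 and DNM3OS, which lack the ending in the rule and could not be chosen by it. Among the high ones were 8 of the list. These 8 were TTN-AS1, TMPO-AS1, EPB41L4A-AS1 at 10.51 and 10.32, MCM3AP-AS1, HIF1A-AS3, ZEB2-AS1, SBF2-AS1 at 8.38 and 8.43, and HOXB-AS1 at 8.16 and 8.35. EPB41L4A, a band 4.1 family protein, read 5.31 and 5.27, and SBF2, a myotubularin-related protein, read 5.47 and 5.48. OIP5-AS1, at 6.92 and 7.10, and FGD5-AS1, at 5.26 and 5.31, were below the limit.

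Position in the genome was used by the rule only through the name. The high antisense RNAs had longer exons than the other named antisense genes, with medians of 2293 and 1521 bases. The part of length in the shares that follow was not tested. Of 149 high antisense RNAs with a gene model in GENCODE 29, 146 (98.0%) share exonic bases with at least 1 protein-coding gene on the opposite strand, compared with 508 of 689 (73.7%) of the other named antisense genes. The exceptions were CPB2-AS1, HIF1A-AS3 and DIP2C-AS1, of which DIP2C-AS1 is itself annotated as protein-coding. Overlap with the gene in the name was present in 140 of 148 (94.6%) and in 479 of 681 (70.3%). The overlap had a median of 414 bases and ranged from 4 to 11381, a median of 24.2% of the antisense exons, beside 220 bases and 15% in the other named antisense genes that overlap. In RCC2-AS1, RPS6KB2-AS1, KXD1-AS1, CHMP1B-AS1, NAV2-AS1 and TTBK2-AS1 every exonic base lay opposite exons of the sense gene.

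Seen over all named antisense genes with a model, the 654 with exonic bases in common with a coding gene on the opposite strand had a median level of 5.77, and 152 of them (23.2%) were at 8 or above. The 184 that share none had a median of 2.55, and 3 of them (1.63%) were at 8 or above. Per kilobase the medians were 5.12 and 2.48, in the same order. Spearman's rho between level per kilobase and the overlapped share of the exons was 0.50 over 829 named antisense genes and 0.36 over the 148 high ones. Both measures are divided by the exonic length of the antisense gene, which by itself raises rho, so nothing is read from its size. It is also a description across genes that share their libraries. As the strand setting is unknown, the part of reads from the sense strand in these levels was not tested.

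**Figure D3:**
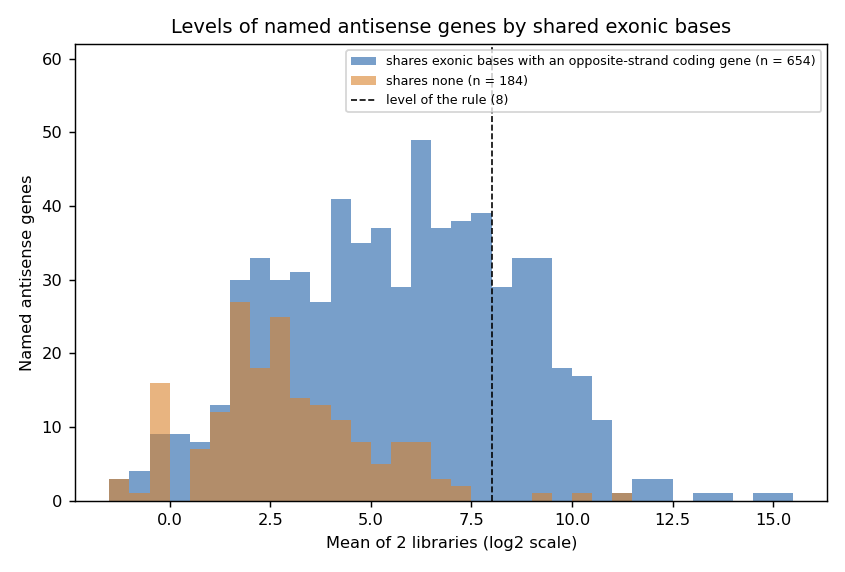
Number of named antisense genes (vertical axis) by mean log2 level over 2 libraries (horizontal axis, bins of equal width), for 654 genes with exonic bases in common with an opposite-strand coding gene (blue) and 184 that share none (orange, drawn over the blue). The dashed line is the level of the rule, 8, which 152 of the first and 3 of the second class reach; the counts include the antisense genes left out of the rule by name.

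In 21 cases the longest exonic overlap was with a coding gene other than the one in the name. A value was present for 19 of these partners, and all 19 lay below the antisense RNA, by a median of 6.71 log2 units as deposited and 7.93 per kilobase. RUSC1-AS1 shares 693 exonic bases with FDPS, an enzyme of isoprenoid synthesis that read 0.23 and 0.23, more than the 398 it shares with RUSC1. ZNF561-AS1 shares 2461 bases with ZNF562, at 6.20 and 6.42, and only 60 with ZNF561. IDI2-AS1, at 10.23 and 10.31, shares 643 bases with IDI1, the isopentenyl diphosphate isomerase, which read 6.49 and 6.59. LIX1L-AS1, at 10.28 and 10.35, shares 541 bases with RBM8A, a core protein of the exon junction complex, which read -0.23 and -0.24. PTOV1-AS1 shares 1438 bases with MED25, a Mediator subunit at 2.77 and 2.71, so this RNA lay below the gene in its name and above its longer partner.

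Of 148 pairs with both models, 51 (34.5%) overlap at their 5′ ends, 49 (33.1%) have the antisense gene inside the sense gene, 38 (25.7%) overlap at their 3′ ends and 10 (6.76%) have the sense gene inside the antisense gene. Among the other named antisense genes these shares were 35.7%, 38.5%, 17.3% and 4.99%. None of the high ones lay apart from its sense gene, compared with 18 divergent (2.64%) and 5 convergent pairs (0.73%) of the others. In 25 of the 51 pairs the 5′ ends lay within 1000 bases of each other, compared with 145 of 243 pairs of the others with overlapping 5′ ends.

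The median difference per kilobase is given by arrangement, with no test. It was 8.90 log2 units for antisense genes inside the sense gene, 6.18 for overlapping 5′ ends, 5.93 for overlapping 3′ ends and 4.98 for sense genes inside the antisense gene. The sense genes had median levels of 2.53, 3.58, 4.76 and 3.44 in the same order. In the other named antisense genes the medians of the difference per kilobase were 3.78, 3.004, 2.69 and 0.61, the same order at a lower level. As deposited that order did not hold. The medians were then 6.61, 5.71, 4.36 and 5.80 for the high ones and 0.72, 0.77, 0.49 and 0.86 for the others. Ranges overlapped widely, from 2.16 to 12.34 for the antisense genes inside and from -0.27 to 13.37 for overlapping 5′ ends.

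**Figure D4:**
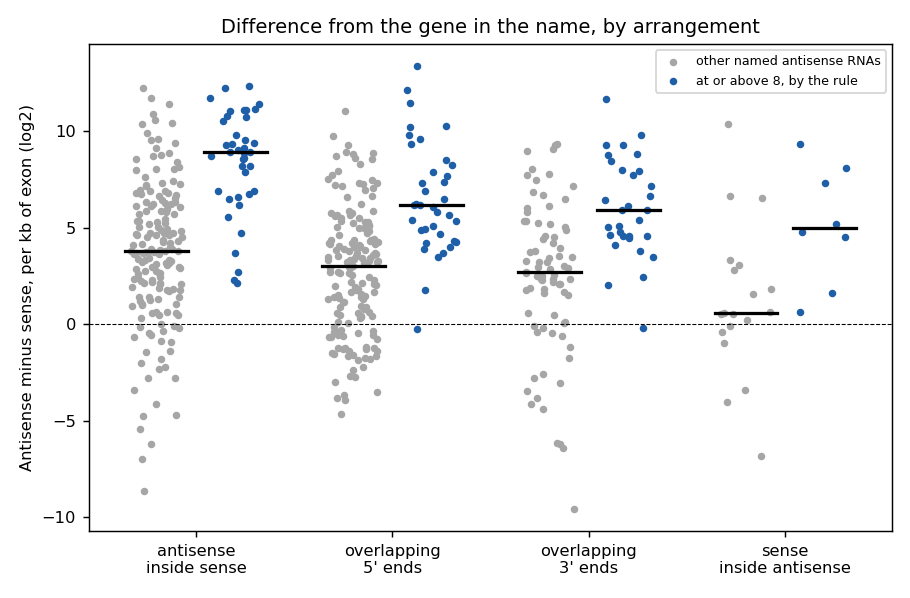
Antisense minus sense level per kilobase of exon (vertical axis, log2) for pairs with both values, by arrangement of the genes (horizontal axis), with 1 point per pair and a bar at each median, blue for the high antisense RNAs and grey for the other named antisense genes. Of the blue points, the 39 pairs with the antisense gene inside the sense gene have the highest median, 8.90, and the ranges of the arrangements overlap.

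Between the libraries, 98 of 150 high antisense RNAs (65.3%) were higher in replicate 2, with a median difference of 0.09 log2 units, replicate 2 minus replicate 1. Over the 927 other genes with a mean of at least 8 the share was 64.0% and the median 0.09. The replicate spread, taken as the SD of these differences over the square root of 2, was 0.19 for the antisense RNAs and 0.22 for these other genes. None of the antisense RNAs differed 2-fold between the libraries, where 0.836% of all 1077 genes at that level and 0.0899% of all genes did. At 1.5-fold there were 2 (1.33%), where the share over those 1077 genes was 4.92%.

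LAMTOR5-AS1 was the most raised in replicate 2, at 9.43 in replicate 1 and 10.36 in replicate 2, while LAMTOR5, a part of the Ragulator complex on lysosomes, read 2.51 and 2.56. GEMIN7-AS1 read 8.02 and 8.60, with GEMIN7, of the SMN complex that assembles splicing particles, at 5.34 and 5.34. SLC9A3R1-AS1, given above, was the third of those higher in replicate 2. Among those lower in replicate 2 were TPBGL-AS1 at 9.70 and 9.12 and PCDHB1-AS1 at 9.12 and 8.55, both with no value for the sense gene. PCDHB1 is a protocadherin, a gene family with many similar members.

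**Figure D5:**
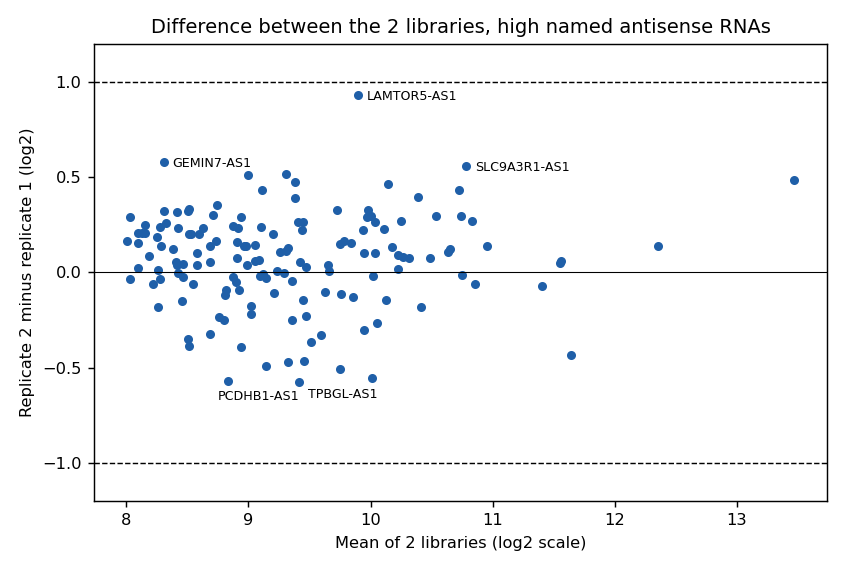
Replicate 2 minus replicate 1 (vertical axis, log2) against the mean log2 level over 2 libraries (horizontal axis), 1 point for each high antisense RNA but 1 that is not reported. Dashed lines mark 2-fold, which no point reaches; LAMTOR5-AS1 is the highest at 0.93.

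The cell type label was set against its markers. Of 14 mast cell genes, 10 had a value, KIT, TPSAB1, TPSB2, CPA3, CMA1, HDC, MS4A2, GATA2, MRGPRX2 and SIGLEC6, from -0.24 to 9.03 with a median of 2.43, while FCER1A, FCER1G, MITF and SIGLEC8 had none. Of other cells' markers, 3 of 3 haemoglobin genes, 1 of 3 platelet genes (GP1BA) and 1 of 4 colon epithelial genes (VIL1) had a value, and 0 of 2 liver and plasma genes. Those without a value were PF4 and PPBP of platelets, CDX2, KRT20 and EPCAM of colon epithelium, and ALB and APOA1. The haemoglobin genes had mean levels from 3.25 to 8.99, GP1BA 7.72 and VIL1 7.47, all above the mast cell median and below the highest mast cell marker. GP1BA and VIL1 are the only genes of their lists with a value, so they do not stand for those lists. The summed linear value of the mast cell markers was 568 in replicate 1 and 662 in replicate 2, and that of haemoglobin 443 and 695. The part of RNA from other cells in the antisense levels was not tested.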

How the data were processed

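RNA of LAD2 extracellular vesicles was measured in 2 libraries. Per the labels' protocols, RNA was extracted with a Qiagen micro RNA kit and libraries were prepared with an NEB NextUltra DNA library kit. The submitters' processing notes name FastQC 0.11.5, STAR 2.6.1a and hg38. For the counter, its strand setting, the annotation and the transform, nothing is given in the sources. The file names say counts, but the values that the authors deposited are log2 values that hold fractions and values below 0, and that draw together at low levels like a regularised log transform. In each library the most frequent linear value among the genes higher in that library was taken as 1 read, though lower values exist. The summed linear value divided by it gave a rough depth of 2100000 reads for replicate 1 and 1600000 for replicate 2. What count that value stands for is assumed, and no counts or intervals were made from the estimate. If mates of a pair were counted separately, fragments are fewer.

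Symbols were looked up by gene identifier (11066 of 14467 matched), and gene models, arrangements and sequences from GENCODE 29 on GRCh38. Length was the union of exons. DHX9-AS1 had no model, and SLC9A3R1 was matched to NHERF1 through RefSeq. With 1 group and levels used by the rule, no test was made; differences were read against the replicate SD (n = 2), and a 2-fold difference had to hold in both libraries. Named genes were the 15 highest, every one whose sense gene was as high or higher, the 3 smallest and 3 largest differences, the 3 largest library differences each way, 3 each side of the limit and those on the widely studied list, of which 1 antisense RNA is not reported by name here; others are examples chosen after their values were seen. The antisense RNAs and lists were chosen with earlier results of these data known. The overlap and arrangement steps were tested on made-up gene models, and the 2-fold call on simulated levels. Those levels had a smaller spread than the high antisense RNAs here and no shrinkage at low values, so that test was an easy one. Alternatives were other limits, per-kilobase values, an added 1 on the linear scale, a filter on low genes, the gene of longest overlap, other symbols, centring and each library alone. Python 3.11.15, numpy 2.4.6 and pandas 2.3.3 were used.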

Additional observations from a re-analysis of the deposited data

How the results depend on the processing

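No paired analysis was possible because both libraries belong to the same group. With a limit of 7 or 9 in place of 8, the number of high antisense RNAs was 228 or 87 and the median difference from the sense gene 5.17 or 6.61 log2 units, and at 9 the antisense RNA was above in 67 of 67 pairs. The median difference was 6.88 per kilobase, 5.655 with 1 added to the linear values, 5.46 against the gene of longest overlap, and 3.99 for sense genes of at least 10 in both libraries, where the antisense RNA was above in 65 of 67 pairs. With both genes at 10 or more, the antisense RNA was above in 162 of 231 of all named antisense pairs and 2-fold above in 127 of 231. With 1 library alone, the number of high antisense RNAs ranged from 150 to 157, those above their sense gene from 112 to 117, the median difference from 5.76 to 5.82, all named antisense genes above from 373 to 376 and those 2-fold above from 317 to 318. With symbols from GENCODE 29, 103 were found. Low sense genes rest on few reads, so their differences are the least certain, and with 2 libraries the SDs are themselves imprecise.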
